A study of Chenopodium quinoa with 24 samples.

Results

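LRR receptor-like kinases are plasma membrane proteins with leucine-rich repeats outside the cell and a serine/threonine kinase domain inside it. The repeats bind a ligand, often a peptide or a piece of a microbe, and many of these receptors then pair with a co-receptor of the SERK family such as BAK1, after which the signal passes through cytoplasmic kinases, MAP kinases and an NADPH oxidase to the nucleus. In Arabidopsis some members recognise bacteria and others guide stomatal patterning, meristem size, cell walls and the shedding of organs. In quinoa leaves, 136 of the 44776 transcripts in the deposited table carried the name LRR receptor-like serine/threonine-protein kinase in the annotation of their best Arabidopsis match. Of these, 72 had a value in all 6 comparisons of a heat treatment with its control and form the set described here, out of 28719 transcripts of any name with 6 values. Of the 64 named transcripts left out, 47 had a value in none of the comparisons and 17 in 1 to 5 of them. The rule uses the name, which came from sequence similarity, and the presence of a value, and no size or direction of a response.

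Quinoa accession QQ74 was grown at 22°C until the first flowers opened and then kept for up to 11 days under 1 of 4 treatments. In the control treatment the whole plant stayed at 22°C. Heated-root plants (HR) had only the roots warmed, to 30°C, and heated-shoot plants (HS) had only the shoots warmed, to 35°C. In plants with both heated (HRS) the root zone was at 30°C while the shoot was at 35°C. Leaf RNA was sequenced from 3 plants of each treatment on day 1 and from 3 other plants on day 11, 24 plants in 8 groups. Per the study's methods, each treatment stood in 1 box, the control and HR boxes in 1 growth chamber and the HS and HRS boxes in another, so box and chamber cannot be told apart from treatment.

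The deposited table gives pooled values and no value of a single plant, so each group is described by the geometric mean of its 3 plants, in normalized estimated counts, and by the residual spread of the 6 plants of a comparison. Differences are given on the log2 scale with the standard error (SE). A transcript was called where limma's moderated test gave a Benjamini-Hochberg adjusted p under 0.05 over all transcripts of the comparison. Days 1 and 11 were normalized separately, so levels were compared within a day only, and the 3 treatments of a day share the same control plants. The values are not per length, so levels of different genes compare only roughly, as in the tissue check and the set medians below. Levels come from whole leaves, in which fewer cells of a type and less RNA per cell cannot be told apart. The deposited values give no sequencing depth, but the study reports read numbers and mapping for each plant. By that report, the share of unique reads was lower in each HS plant of day 11 than in every other plant of that day. The part of depth or mapping in the differences below was not tested. As a check of the tissue, transcripts of the leaf genes RBCS1A, RCA and LHCB1.3 reached mean levels of 219382, 123615 and 103052, those of the flower genes AG and PI and the root genes WOX5 and NRT2.1 had no full set of values, and the flower genes AP3 and SEP3 had 1 transcript each with a full set, at 11.1 and 16.5. The root genes SCR and PHO1 were present at up to 468 and 23.9. Summed over 18 leaf marker transcripts, the level on day 11 was 1828110 in control, 2404240 in HR, 1614100 in HRS and 495551 in HS.

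The 72 transcripts matched 33 Arabidopsis loci, of which 20 were matched by 2 transcripts, 7 by 1 and 6 by 3 or more. Their mean levels ran from 3.69 to 1328 normalized estimated counts with a median of 114, against a median of 143 over the 28719 transcripts. Their median residual SD was 0.39 on the log2 scale, against 0.29 over all, so the residual spread was wider here than for the typical leaf transcript. This spread holds both differences between plants and the technical variance of the estimated counts. Quinoa is a tetraploid, and copies of 1 gene may share reads. No member had the same pooled means as another transcript, but how reads were split between close copies is uncertain.

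Heated roots alone gave no called member on either day. In HR on day 1 the 72 differences ran from -1.05 to 0.78 with a median of -0.03 and a median SE of 0.26, and in all transcripts percent called was 0.0. At an unadjusted p under 0.05, 4 members passed (5.56%, against 7.66% of all transcripts tested). On day 11 the range over the 71 members with a known direction was -1.65 to 1.31 and 6 of 72 members (8.33%) had an unadjusted p under 0.05, against 11.0% of all transcripts, of which again 0.0% were called after adjustment. The smallest adjusted p of a member in HR was that of AUR62022246 (At4g29180) on day 11, at 154 against 457 in control, a difference of -1.57 (SE 0.27, adjusted p = 0.36).

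Heated shoots gave calls on day 1. In HS, 16 of 72 members were called (22.2%), 5 higher and 11 lower, and in HRS 15 (20.8%), 5 higher and 10 lower. Over all transcripts tested, 22.1% were called in HS and 22.7% in HRS, so the members' share lay close to the background. By direction, in HS 6.94% of members rose against 12.0% of all transcripts, and 15.3% fell against 10.0%. In HRS the shares were 6.94% against 12.1% for rises and 13.9% against 10.5% for falls, and no test was made of these differences in share. The median difference was -0.12 in HS and -0.21 in HRS, against -0.01 over all transcripts in both. With values scaled to the total estimated count, which moves every HS difference on day 1 by -0.25 and every HRS difference by -0.19, the split became 2 higher and 18 lower in HS and 3 higher and 19 lower in HRS.

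**Figure D1:**
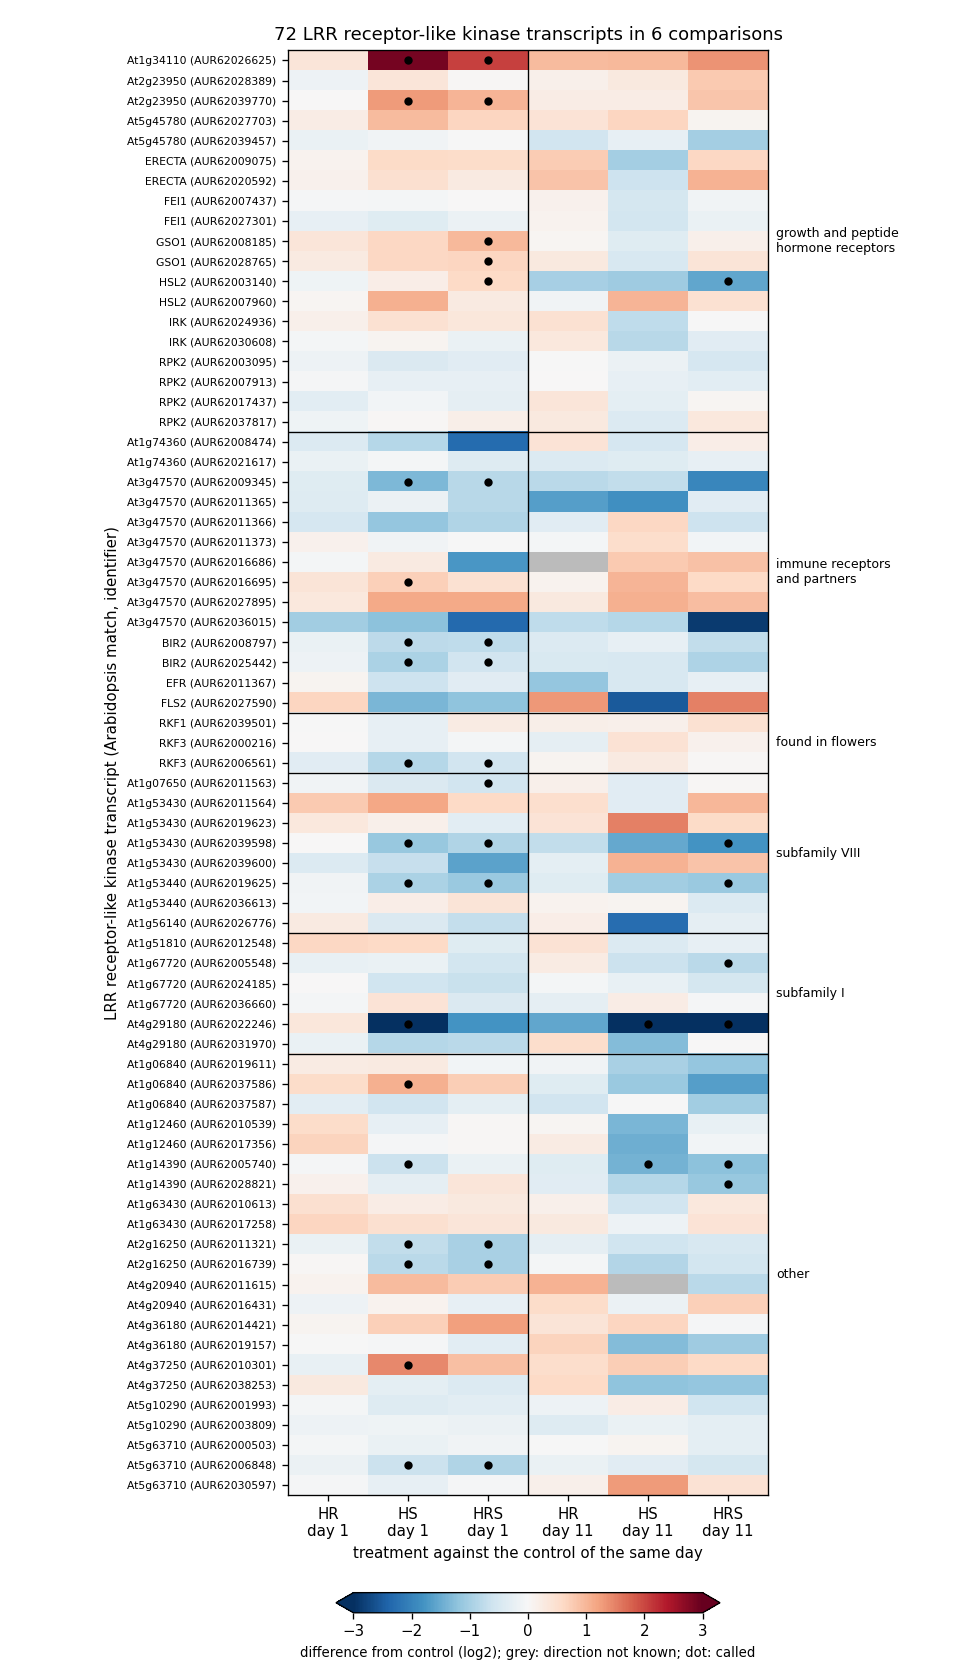
Difference from the control of the same day (colour, log2, limited to 3 in each direction) for the 72 LRR receptor-like kinase transcripts (rows, by role and Arabidopsis match) under each treatment and day (columns). Black dots mark calls and grey cells a direction that could not be known; the HR columns hold 0 dots, the HS and HRS columns of day 1 hold 16 and 15, and those of day 11 hold 2 and 7.

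Of 19 receptors and co-receptors of growth and development, day 1 brought 5 rises in HRS, 2 in HS and 0 falls in either, while scaling to the total estimated count gave 2 higher and 3 lower in HS and 3 of each in HRS. Of all transcripts, 12.1% rose in HRS and 12.0% in HS, so the 2 of 19 in HS lay near the background. The largest rise in both was that of AUR62026625, the match of At1g34110 (RGI5, a receptor of root meristem growth factor peptides in Arabidopsis). It stood at 11.7 in control, 15.0 in HR, 48.4 in HRS and 85.6 in HS on day 1. Both shoot-heated groups were above both groups with cool shoots. Against control the difference was 2.87 in HS (SE 0.49, adjusted p = 0.0052) and 2.04 in HRS (SE 0.49, adjusted p = 0.019), and no test was made against HR. Its control level was low, near 12 counts.

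The better measured rise was that of AUR62039770, the match of At2g23950 (CIK2, a co-receptor in CLAVATA3 signalling, which limits stem cell number in Arabidopsis meristems). Its level was 252 in control, 256 in HR, 510 in HRS and 607 in HS on day 1. The HS difference was 1.27 (SE 0.14, adjusted p = 0.00076) and the HRS difference 1.01 (SE 0.15, adjusted p = 0.0020), and both held under each alternative test and scaling. The other match of At2g23950, AUR62028389, was at 269 in control and 347 in HS, a difference of 0.37 (SE 0.22) that was not called. Of the matches of the related co-receptor CIK4 (At5g45780), neither was called in any comparison.

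Both matches of GSO1, a receptor needed for the root Casparian strip and the embryo cuticle in Arabidopsis, rose in HRS on day 1. AUR62008185 was at 94.4 in control, 122 in HR, 187 in HRS and 145 in HS, and its HRS difference was 0.98 (SE 0.18, adjusted p = 0.0054). AUR62028765 was at 124 in control, 151 in HR, 195 in HRS and 192 in HS, with an HRS difference of 0.65 (SE 0.19, adjusted p = 0.045). In HS both copies differed from control by 0.62 (SE 0.20 each), just short of the threshold (adjusted p = 0.056 and 0.057). The HRS and HS differences of day 1 were not called different from each other for either copy.

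HSL2 is the receptor, with HAESA, of the peptide IDA that drives the shedding of floral organs in Arabidopsis. Its abundant match AUR62003140 was at 389 in control, 354 in HR, 592 in HRS and 447 in HS on day 1, and rose in HRS by 0.61 (SE 0.14, adjusted p = 0.016). The other HSL2 match, AUR62007960, had levels of 10.1 to 20.9 on day 1 and was not called.

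Growth receptors that are well known for patterning and cell walls were not called on day 1. The ERECTA matches AUR62020592 and AUR62009075 differed from control by 0.49 (SE 0.40) and 0.58 (SE 0.46) in HS. ERECTA controls organ growth and stomatal spacing. For FEI1, a kinase of cell wall synthesis in roots, the copies AUR62007437 and AUR62027301 differed by -0.05 (SE 0.12) and -0.37 (SE 0.13) in HS. For IRK, which restrains cell divisions in the root, AUR62024936 and AUR62030608 differed by 0.47 (SE 0.23) and 0.08 (SE 0.17). The 4 matches of RPK2, a kinase of anther and meristem development, lay between -0.42 (SE 0.13, AUR62003095, adjusted p = 0.0502) and 0.03 (SE 0.17, AUR62037817) in HS.

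**Figure D2:**
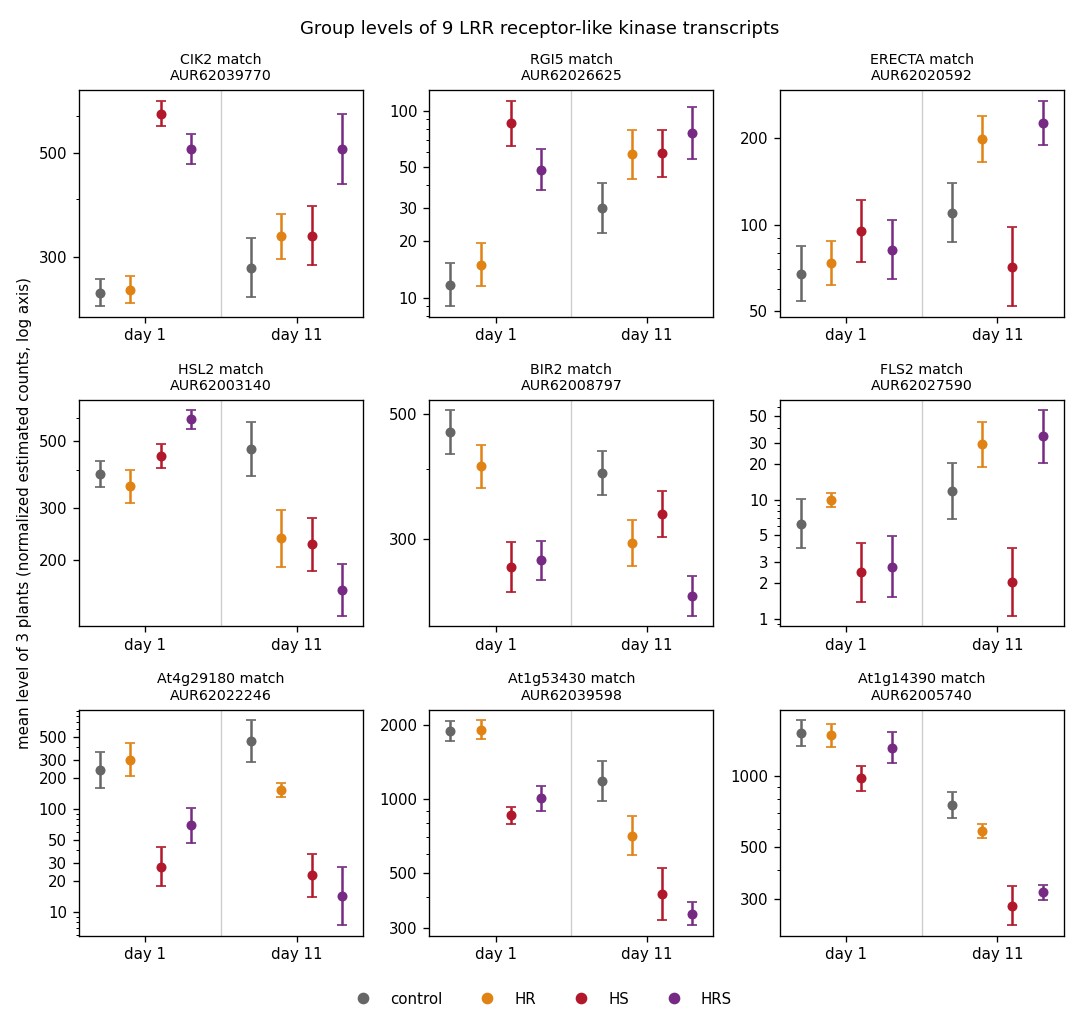
Level of 9 LRR receptor-like kinase transcripts (geometric mean of 3 plants, normalized estimated counts, log axis) on days 1 and 11 for the control, HR, HRS and HS groups. Bars are 1 SE from the residual SD of the group's own comparison, and for control from the mean residual variance of the 3 comparisons of the day; the CIK2 and RGI5 matches are high in both shoot-heated groups of day 1, and the At4g29180 and At1g53430 matches are low in both on both days.

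The group of immune receptors and their partners had 14 members. Of these, 8 matched At3g47570, which was placed here only as a relative of the immune receptors FLS2 and EFR. In the group, 1 rose and 3 fell in HS on day 1, and 0 rose and 3 fell in HRS, with medians of -0.71 and -0.79. Of all transcripts, 12.0% rose and 10.0% fell in HS and 12.1% and 10.5% in HRS. Under total scaling the counts were 0 higher and 4 lower in both. BIR2 is an inactive kinase that holds the co-receptor BAK1 away from immune receptors in Arabidopsis, and both of its matches fell. AUR62008797 was at 464 in control, 404 in HR, 275 in HRS and 267 in HS, a fall of 0.80 in HS (-0.80, SE 0.18, adjusted p = 0.017) and of 0.76 in HRS (-0.76, SE 0.15, adjusted p = 0.0097). AUR62025442 was at 584 in control, 522 in HR, 389 in HRS and 304 in HS, with differences of -0.94 (SE 0.22, adjusted p = 0.018) and -0.59 (SE 0.17, adjusted p = 0.044). For both copies the 2 groups with cool shoots were above the 2 groups with hot shoots.

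The flagellin receptor FLS2 and the receptor of elongation factor Tu, EFR, were each matched by 1 transcript with low counts. The FLS2 match AUR62027590 was at 6.28 in control, 9.90 in HR, 2.73 in HRS and 2.44 in HS on day 1, with differences of -1.36 in HS (SE 1.13) and -1.21 in HRS (SE 1.13) that were not called. The EFR match AUR62011367 was at 18.1 in control, 19.1 in HR, 14.4 in HRS and 11.8 in HS, with an HS difference of -0.62 (SE 0.84). At these levels the SE was wide, and differences of this size were not detectable. The matches of At1g74360 (NILR1, a receptor of nematode immunity in Arabidopsis) were not called in any comparison.

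The locus with the most members was At3g47570, a relative of FLS2 and EFR matched by 8 transcripts, and these did not move together. On day 1 in HS, 1 rose and 1 fell, and the 8 differences ran from -1.35 to 1.13. AUR62009345 was at 371 in control, 287 in HR, 208 in HRS and 145 in HS, differing by -1.35 in HS (SE 0.19, adjusted p = 0.0025) and by -0.83 in HRS (SE 0.16, adjusted p = 0.0072). AUR62016695 was at 98.7 in control, 130 in HR, 135 in HRS and 162 in HS, a rise of 0.71 in HS (SE 0.21, adjusted p = 0.047) with 0.46 in HRS (SE 0.25) not called. The 8 copies thus held the only rise in the immune group and 1 of its 3 falls.

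RKF1 and RKF3 were named for kinases found in Arabidopsis flowers. RKF3 match AUR62006561 was at 136 in control, 108 in HR, 91.2 in HRS and 74.7 in HS on day 1, and fell in both (-0.86, SE 0.19, adjusted p = 0.014 in HS and -0.57, SE 0.18, adjusted p = 0.0497 in HRS). Its partner copy AUR62000216 differed by -0.25 (SE 0.29) in HS and was not called. The RKF1 match AUR62039501 differed by -0.24 (SE 0.26) in HS and 0.25 (SE 0.25) in HRS.

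The group named subfamily VIII here held 8 matches of At1g53430, At1g53440, At1g07650 and At1g56140, with a malectin domain beside the repeats. Relatives placed in other groups, such as RKF1 and the At1g06840 matches, were not counted in it. On day 1, 2 of these 8 fell in HS and 3 in HRS, against 10.0% and 10.5% of all transcripts. These shares hold for the 8 members and not for a whole subfamily. AUR62039598 (At1g53430) was at 1895 in control, 1921 in HR, 1008 in HRS and 861 in HS. It differed by -1.14 in HS (SE 0.14, adjusted p = 0.0015) and by -0.91 in HRS (SE 0.18, adjusted p = 0.0095). AUR62019625 (At1g53440) was at 601 in control, 563 in HR, 277 in HRS and 309 in HS, with differences of -0.96 (SE 0.12, adjusted p = 0.0016) and -1.12 (SE 0.15, adjusted p = 0.0016). In both, HR stayed near control and the shoot-heated groups were about 1 log2 unit under it. The other fall was that of AUR62011563 (At1g07650) in HRS, at -0.57 (SE 0.16, adjusted p = 0.032).

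The largest fall on day 1 belonged to subfamily I, which has a malectin-like domain. AUR62022246 matched At4g29180, known in Arabidopsis as RHS16 and named for its expression in root hairs. It was at 239 in control, 300.0 in HR, 69.2 in HRS and 27.3 in HS. The HS difference was -3.13 (SE 0.65, adjusted p = 0.012), and the HRS difference of -1.79 (SE 0.57) missed the threshold (adjusted p = 0.055).

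The other 22 members were placed in none of the groups above. The annotation gives their matches a locus number as symbol, which does not mean that no function is known. Of these members, 2 rose and 4 fell in HS and 0 rose and 3 fell in HRS on day 1. With total scaling 0 were higher in either, 6 lower in HS and 4 in HRS. The background shares were 12.0% higher and 10.0% lower in HS and 12.1% and 10.5% in HRS. The rises were AUR62010301 (At4g37250), at 65.4 in control and 178 in HS with a difference of 1.45 (SE 0.39, adjusted p = 0.032), and AUR62037586 (At1g06840), at 22.8 in control and 48.1 in HS with 1.08 (SE 0.30, adjusted p = 0.035). Both copies matching At2g16250 fell in both treatments. AUR62011321 went from 296 in control to 177 in HS and 151 in HRS (-0.74, SE 0.16 and -0.97, SE 0.17), and AUR62016739 from 238 to 136 and 121 (-0.80, SE 0.22 and -0.97, SE 0.23). AUR62006848 (At5g63710) was at 1232 in control, 785 in HS and 659 in HRS, a fall of 0.65 in HS (-0.65, SE 0.18, adjusted p = 0.035) and of 0.90 in HRS (-0.90, SE 0.18, adjusted p = 0.0095). The remaining call was AUR62005740 (At1g14390) in HS at -0.64 (SE 0.19, adjusted p = 0.049).

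HS and HRS were each compared with the same 3 control plants, so their day 1 calls are not independent. Of the 20 members called in either, 11 were called in both, 5 in HS only and 4 in HRS only. The same overlap was not counted over all transcripts, so these counts do not set the members apart. A call in 1 treatment only is no test of a difference between HS and HRS. In the direct comparison of HRS with HS on day 1 by limma, 0 of 72 members were called, and 1 of 29582 transcripts (0.00338%). At an unadjusted p under 0.05, 5 members passed (6.94%, against 9.17% of all transcripts).

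Called copies of 1 locus never moved in opposite directions among the 20 loci matched by exactly 2 members. In HS on day 1, both copies were called at 2 of the 20 loci, 1 copy at 6 and neither at 12. In HRS the counts were 3, 4 and 13. One copy called and the other not is no test of a difference between copies, and none was made.

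**Figure D3:**
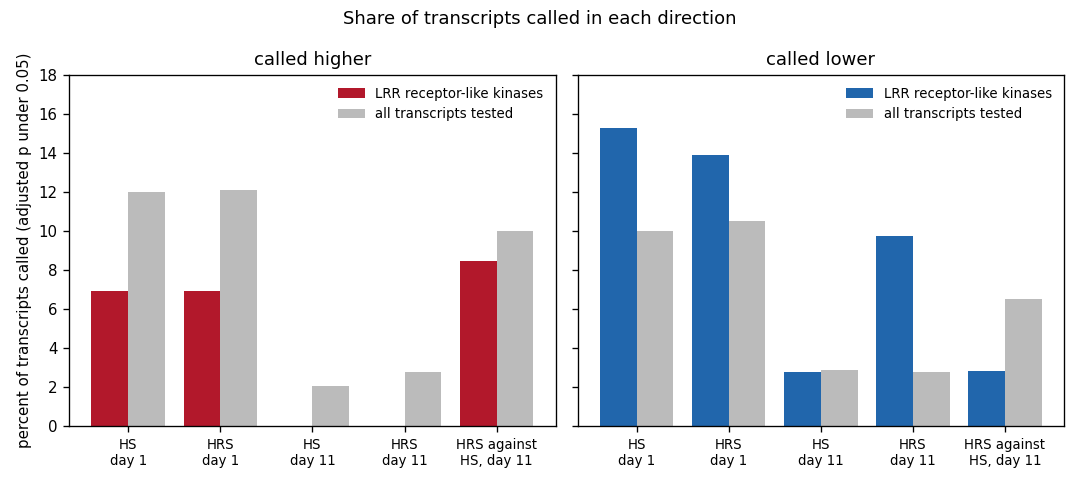
Percent of LRR receptor-like kinase transcripts (colour) and of all transcripts tested (grey) called higher (left) and lower (right) at an adjusted p under 0.05, for HS and HRS against control on days 1 and 11 and for HRS against HS on day 11. Members called lower in HRS on day 11 make 9.72% against 2.77% of all transcripts, and 0 members were called higher in HS or HRS on day 11.

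By day 11 fewer transcripts of any kind were called. Regardless of sign, the members' median HS difference went from 0.49 on day 1 to 0.61 on day 11, against 0.39 and 0.40 over all transcripts. The members' median SE went from 0.27 to 0.33. For HRS the size moved from 0.44 to 0.53, against 0.39 and 0.38 over all transcripts, and the members' SE from 0.26 to 0.32. A median taken regardless of sign also grows with the spread, so it cannot show whether the responses shrank. By limma's unadjusted p under 0.05, 23 members passed in HS (25 on day 1) and 22 in HRS (26 on day 1). Why fewer passed after adjustment was not tested. In HS, 2 of 72 members were called, both lower (2.78%, against 4.95% of all transcripts in either direction, 2.05% higher and 2.86% lower). In HRS, 7 were called, all lower (9.72%, against 5.55% in either direction and 2.77% each higher and lower). The median difference was -0.35 in HS over 71 members, of which 69.0% lay below control against 50.9% of all transcripts, and -0.22 in HRS with 59.7% below control against 52.5%. In HS the summed leaf markers were at the level of 495551 against 1828110 in control, with 10 of the 18 marker transcripts called lower and 0 higher, and their part in the HS result was not tested. Scaled to the total estimated count, every HS difference on day 11 moves up by 0.35 and the split becomes 4 higher and 1 lower. The HRS split stayed at 0 higher and 7 lower under that scaling, which moves HRS by -0.02.

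AUR62022246 (At4g29180) had the largest fall of day 11 too. It stood at 457 in control, 154 in HR, 14.1 in HRS and 22.7 in HS. The differences were -4.33 in HS (SE 0.72, adjusted p = 0.030) and -5.02 in HRS (SE 0.95, adjusted p = 0.028). The HR difference was -1.57 (SE 0.27) and was not called (adjusted p = 0.36). The second copy of this locus, AUR62031970, was at 79.9 in control and 80.2 in HRS, a difference of 0.00 (SE 0.28).

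Of the subfamily VIII members that fell on day 1, 2 were also under control on day 11 and the other, AUR62011563 (At1g07650), was at 257 in HRS and 253 in control. AUR62039598 (At1g53430) was at 1187 in control, 711 in HR, 343 in HRS and 412 in HS, with a called HRS difference of -1.79 (SE 0.21, adjusted p = 0.013) and an HS difference of -1.53 (SE 0.38, adjusted p = 0.060). AUR62019625 (At1g53440) was at 274 in control, 212 in HR, 126 in HRS and 132 in HS, with -1.12 in HRS (SE 0.26, adjusted p = 0.047) and -1.05 in HS (SE 0.35, adjusted p = 0.11). In each case HR lay between control and the shoot-heated groups.

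Both matches of At1g14390 fell in HRS. AUR62005740 was at 754 in control, 587 in HR, 321 in HRS and 282 in HS, with -1.42 in HS (SE 0.32, adjusted p = 0.048) and -1.23 in HRS (SE 0.18, adjusted p = 0.017). AUR62028821 was at 1428 in control, 1130 in HR, 648 in HRS and 786 in HS, with -1.14 in HRS (SE 0.17, adjusted p = 0.019) and -0.86 in HS (SE 0.29, adjusted p = 0.11). It was the only locus of the 20 with both copies called in HRS on day 11. The remaining fall was that of AUR62005548 (At1g67720, subfamily I), from 336 to 192 in HRS (-0.81, SE 0.17, adjusted p = 0.037).

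The abundant HSL2 match AUR62003140 was above control on day 1 and below it on day 11 in HRS. Its day 11 levels were 471 in control, 237 in HR, 159 in HRS and 226 in HS, and all 3 heated groups were under control. The HRS difference was -1.57 (SE 0.32, adjusted p = 0.035), while those of HR (-0.99, SE 0.34) and HS (-1.06, SE 0.33) were not called. Of the other growth receptors, 0 were called on day 11 against control, and the median of the 19 members was -0.35 in HS and 0.07 in HRS. BIR2 was not called on day 11: AUR62008797 differed by -0.25 (SE 0.20) in HS and -0.73 (SE 0.19) in HRS, and AUR62025442 by -0.47 (SE 0.20) and -0.93 (SE 0.23). The change of the BIR2 difference between days was not called for either copy in HS or HRS.

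Over both days, 22 members at 17 loci were called in at least 1 comparison with control and 50 in none. Of the 7 members called on day 11, 5 had also been called on day 1. The matching shares over all transcripts were not counted, so these counts are not read as particular to the members.

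HRS and HS plants both had hot shoots, and by design the roots stood at 30°C in HRS and at 22°C in HS. On day 11, 8 of 71 members were called between them (11.3%, against 16.5% of all transcripts), 6 higher in HRS and 2 lower. Over all transcripts 10.0% were higher and 6.51% lower. With scaling to the total estimated count, which moves all these differences by -0.37, the split became 3 higher and 13 lower. In the same comparison 15 of the 18 leaf marker transcripts were called higher in HRS and 0 lower, and their part in the members' differences was not tested. The test takes the spread as equal in the groups of a day. With the largest variance that the deposited values allow, 0 of the 8 members were called.

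The largest difference was that of the FLS2 match AUR62027590, at 11.7 in control, 29.2 in HR, 33.9 in HRS and 2.03 in HS on day 11. The 2 groups with warm roots were above control and HS below it, and HRS exceeded HS by 4.05 (SE 0.97, 95% interval 1.91 to 6.19, adjusted p = 0.020). None of the 3 treatments was called against control for this transcript (HR 1.31, SE 0.71, HS -2.53, SE 1.18 and HRS 1.52, SE 0.82). The HS level was under 3 counts, where the offset added before the log weighs on the value, so the size of this difference is uncertain.

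The ERECTA matches also had HR and HRS above control and HS below it. AUR62020592 was at 110 in control, 199 in HR, 226 in HRS and 71.5 in HS, and HRS exceeded HS by 1.66 (SE 0.40, 95% interval 0.77 to 2.55, adjusted p = 0.021). AUR62009075 was at 46.0 in control, 78.5 in HR, 71.3 in HRS and 22.6 in HS, a difference of 1.66 (SE 0.53) that missed the threshold (adjusted p = 0.058). No treatment was called against control for either copy. GSO1 match AUR62028765 was at 216 in control, 265 in HR, 282 in HRS and 154 in HS, with HRS above HS by 0.87 (SE 0.22, adjusted p = 0.024).

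The smallest p among the members belonged to AUR62010613 (At1g63430), at 305 in control, 340 in HR, 381 in HRS and 206 in HS, with HRS above HS by 0.89 (SE 0.18, 95% interval 0.48 to 1.29, adjusted p = 0.011). AUR62026776 (At1g56140, subfamily VIII) was at 578 in control, 668 in HR, 479 in HRS and 118 in HS, so that HS alone was low, and HRS exceeded HS by 2.02 (SE 0.53, adjusted p = 0.027). The second At4g29180 match, AUR62031970, was at 79.9 in control, 114 in HR, 80.2 in HRS and 32.4 in HS, a difference of 1.3 (SE 0.38, adjusted p = 0.041).

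The members lower in HRS than in HS were AUR62011366 (At3g47570) and AUR62001993 (At5g10290). The first was at 39.4 in control, 31.0 in HR, 25.8 in HRS and 60.3 in HS (-1.23, SE 0.32, adjusted p = 0.028). The second was at 185 in control, 167 in HR, 123 in HRS and 215 in HS (-0.81, SE 0.20, adjusted p = 0.024). In both, HS was the highest group and HRS the lowest. Of the 20 loci with 2 members, 0 had both copies called in this comparison and 5 had 1.

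**Figure D4:**
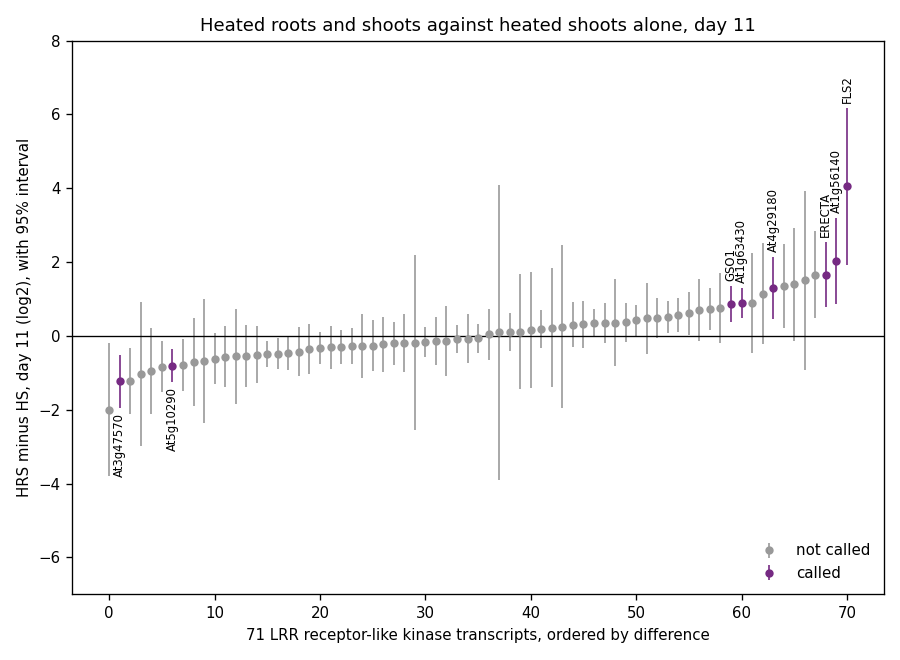
HRS minus HS on day 11 (log2) for 71 LRR receptor-like kinase transcripts, ordered by difference, with 95% intervals from limma. The 8 called members are coloured and named by their Arabidopsis match, 6 above 0 and 2 below, from -1.23 for At3g47570 to 4.05 for FLS2.

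The treatment difference itself was compared between days, using the different plants of each day. The HS difference changed for 3 of 71 members, all lower on day 11 (4.23%, against 12.8% of all transcripts in either direction, 4.41% higher and 8.39% lower). The HRS difference changed for 3 of 72, all lower (4.17%, against 5.13% in either direction, 1.51% higher and 3.62% lower). Scaled to the total estimated count, which moves the HS change by 0.60, the HS split became 11 higher and 1 lower. The summed leaf markers were at 1113580 in HS against 698568 in control on day 1 and at 495551 against 1828110 on day 11, and 16 of 18 leaf markers had a called lower HS difference on day 11. Their part in the members' change was not tested.

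AUR62037586 (At1g06840) changed in both treatments. In HS it stood above control on day 1 (48.1 against 22.8) and below it on day 11 (24.1 against 51.9), a change of -2.19 (SE 0.39, adjusted p = 0.0042). In HRS it went from 38.2 against 22.8 to 16.5 against 51.9, a change of -2.40 (SE 0.60, adjusted p = 0.040).

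The other changes in HS were in growth receptors, AUR62039770 (CIK2, -1.04, SE 0.30, adjusted p = 0.043) and AUR62008185 (GSO1, -0.97, SE 0.25, adjusted p = 0.028). Neither was called with total scaling, at -0.44 and -0.37. The CIK2 match was above control in HS by 1.27 on day 1 and by 0.23 (SE 0.26) on day 11. The GSO1 match went from 0.62 to -0.35 (SE 0.19). Of the 19 growth receptor members, 18 had a lower HS difference on day 11 than on day 1, 2 of them called. A lower HS difference on day 11 was found for 50.2% of all transcripts and 66.2% of the 71 members. These shares were not tested against each other. With total scaling 9 of the 19 growth receptor members were lower, with 1 called higher and 0 lower. In HRS the other changes were in HSL2 match AUR62003140 (-2.17, SE 0.38, adjusted p = 0.0066), from 0.61 to -1.57, and in AUR62028821 (At1g14390, -1.51, SE 0.21, adjusted p = 0.0019), from 0.37 (SE 0.13) to -1.14.

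**Figure D5:**
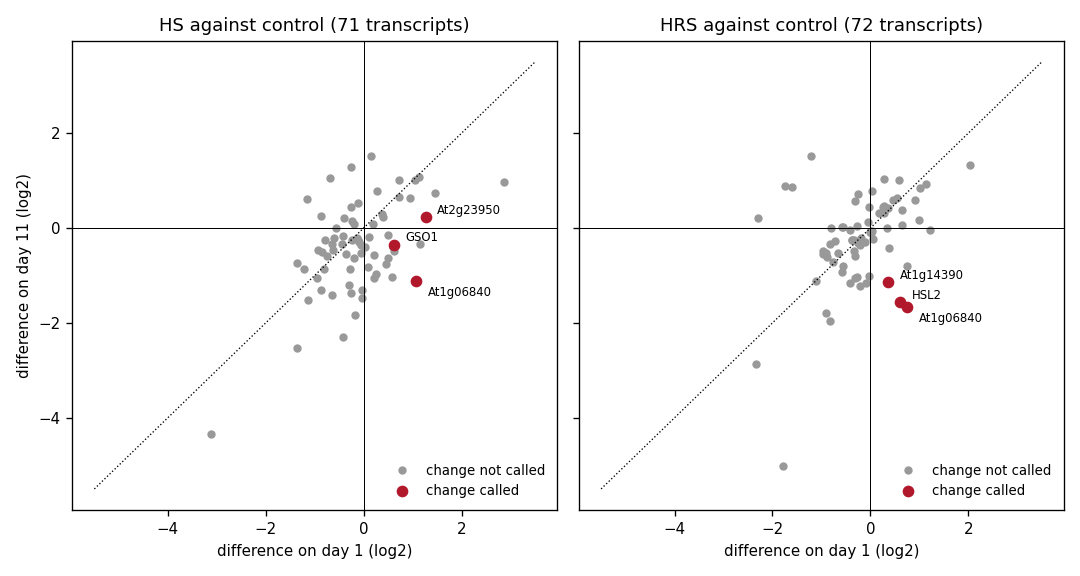
Difference from control on day 11 (vertical, log2) against day 1 (horizontal, log2) for HS (left, 71 transcripts) and HRS (right, 72 transcripts). Points on the dotted line have the same difference on both days; the called changes, 3 in each panel, lie below it and are named.

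Genes that act beside or below these receptors were taken as a list of 36 Arabidopsis loci, of which 26 had a match with values in all 6 comparisons, 63 transcripts in all. On day 1, 2 rose and 23 fell in HS, and 2 rose and 19 fell in HRS, with medians of -0.30 and -0.36. As shares of the list these were 3.17% higher and 36.5% lower in HS, against 12.0% and 10.0% of all transcripts, and 3.17% and 30.2% in HRS, against 12.1% and 10.5%. Total scaling gave 1 higher and 32 lower in HS and 1 and 31 in HRS. No HR comparison had a call on this list. The list includes the 2 BIR2 transcripts described above. It was chosen with earlier results of these data known, so its shares are a description and not independent evidence. No test was made of the differences in share.

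Among co-receptors and their regulators, SOBIR1, the partner of receptor-like proteins in immunity, fell most. AUR62001233 had a level of 545 in control on day 1 and differed by -4.44 in HS (SE 0.57, adjusted p = 0.0015) and -3.57 in HRS (SE 0.58, adjusted p = 0.0034). On day 11 it was still called in both, at -2.15 (SE 0.45, adjusted p = 0.042) and -2.83 (SE 0.55, adjusted p = 0.030). BIR1, a relative of BIR2 that also binds BAK1, fell on day 1 in 2 of its 4 transcripts. AUR62006607 differed by -1.41 in HS (SE 0.17) and -1.30 in HRS (SE 0.13), and AUR62000259 by -1.14 (SE 0.14) and -0.96 (SE 0.12). Of the 3 transcripts of BAK1, AUR62035721 fell by 0.55 in HS (-0.55, SE 0.13, adjusted p = 0.018) and the other two were not called.

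Among downstream genes with called falls on day 1, RBOHD, the NADPH oxidase of the immune burst, differed by -1.90 in HS (SE 0.35, adjusted p = 0.0071) and -1.55 in HRS (SE 0.26, adjusted p = 0.0044), as AUR62000775. Both transcripts of the MAP kinase MPK3 fell, AUR62025042 with a difference of -3.87 in HS (SE 0.55) and AUR62006492 with -1.77 (SE 0.44). All 4 transcripts of WRKY33, a transcription factor of the immune response, fell in both treatments, by differences of -1.95 to -0.91 over the 8 values. WRKY40 match AUR62031604 had the largest fall, -6.00 in HS (SE 0.76) and -5.97 in HRS (SE 0.75), from a control level of 47.8. A fall of this size leaves both heated groups near the offset added before the log, so its size and rank are uncertain.

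The stomatal part of the list differed between its members. The peptide EPFL9 (stomagen), which promotes stomata through the ERECTA family, rose on day 1 as AUR62042875 by 2.16 in HS (SE 0.21, adjusted p = 0.00049) and 2.02 in HRS (SE 0.19, adjusted p = 0.00028), from a control level of 132. TMM, the receptor-like partner of ERECTA, differed by 0.03 in HS (SE 0.18) and -0.01 in HRS (SE 0.17) as AUR62016333. YDA, the MAP kinase kinase kinase below ERECTA, fell in HS in 3 of 4 transcripts, by differences of -0.73 to -0.39.

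On day 11, 0 of the 63 transcripts rose in HS or HRS, 2 fell in HS (3.17%, against 2.86% of all transcripts) and 3 in HRS (4.76%, against 2.77%), shares near those of all transcripts. Total scaling gave 2 higher and 2 lower in HS and 0 and 4 in HRS. Of the 62 with a known direction in HRS against HS, 1 was called higher (RBOHF match AUR62010765, 1.02, SE 0.22, adjusted p = 0.014) and 2 lower, both MPK4 transcripts (AUR62010733 at -0.67, SE 0.19 and AUR62019742 at -0.75, SE 0.22), against 10.0% higher and 6.51% lower of all transcripts. With total scaling 1 was higher and 11 lower.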

How the data were processed

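The authors trimmed reads with trimmomatic, estimated transcript counts with kallisto against the quinoa transcriptome and fitted sleuth 0.30.0 (submitters' notes) to 3 treated and 3 control plants of a day, 6 fits in all. The deposited means are natural log (ln) values of normalized estimated counts over 6 plants; the deposited variances are on the same natural log scale. None of the columns (0) gives a value for 1 plant. The authors' effects, p-values and q-values are in the deposited table and were not used.

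The size of each treatment difference was rebuilt from the deposited total and residual variance (4 degrees of freedom), and its sign from the pooled means of the 3 fits of a day, which share control plants. The 3 fits gave the same answer within 0.01 ln units for 95.5% (day 1) and 88.8% (day 11) of transcripts. The sign stayed unknown for 2 member values: AUR62016686 (At3g47570) in HR and AUR62011615 (At4g20940) in HS, both on day 11.

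limma 3.58.1 (R 4.3.3) moderated the residual variances with a trend over abundance, in place of sleuth's Wald test, which needs the authors' own columns. HRS against HS used the mean residual variance of the day with 6 degrees of freedom, the change between days 8. Benjamini-Hochberg adjustment ran over all transcripts of a comparison. Scripts in Python 3.11.15 (pandas 2.3.3, numpy 2.4.6, matplotlib 3.10.9, scipy 1.17.1) were tested on simulated data.

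Members, roles and lists were chosen with earlier results of these data known. Named are members whose match has a gene name, the 5 largest called rises and falls per shoot-heated comparison, the 3 smallest p in HRS against HS and in each change, loci with at least 5 members, and pathway genes. Other called members (such as At1g56140, At5g10290 and At1g07650) were named after their values were seen. Alternatives were other variance models, thresholds, scalings, an abundance filter and 1 transcript per locus. Transcript identifiers matched 0 entries of the reference gene table, so no sequence was shown.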

Additional observations from a re-analysis of the deposited data

Results flagged for a closer look

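For 6 member results, the difference from control itself differed between day 1 and day 11 by limma's test, with 12.8% of all transcripts called in the HS change and 5.13% in the HRS change. In HS these were AUR62037586 (At1g06840) with a change of -2.19, AUR62039770 (At2g23950, CIK2) with -1.04 and AUR62008185 (GSO1) with -0.97. In HRS they were AUR62037586 (At1g06840) with -2.40, AUR62003140 (HSL2) with -2.17 and AUR62028821 (At1g14390) with -1.51. The HS changes of CIK2 and GSO1 were not called after scaling to the total estimated count, and their largest adjusted p over all alternatives was 0.28 and 0.27. The HS change of At1g06840 and the HRS changes of HSL2 and At1g14390 were called under every alternative test and scaling, with a largest adjusted p of 0.010, 0.037 and 0.012. The HRS change of At1g06840 was lost under 2 of 5, with a largest adjusted p of 0.071.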

How the results depend on the processing

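Of 54 called member results, 12 kept their call under every alternative test and scaling, and 0 changed sign. Calls kept were 54 of 54 with a normal test, 52 of 54 with median centring, 47 of 47 with the abundance filter, 42 of 54 with total scaling, 31 of 54 without the abundance trend, 15 of 54 with an ordinary t distribution and 0 of 8 with the largest variance allowed. Counts of called members that moved were as follows. Without the trend: HS day 1 10, HS day 11 0, HRS day 11 1. Ordinary t: HS day 1 6, HRS day 1 4, HS day 11 0, HRS day 11 0, HRS against HS on day 11 1. Normal test: HR day 11 1, HS day 11 8, HRS day 11 14, HRS against HS 1 on day 1, HS change 6. Median centring: HS day 11 1. Total scaling: HS day 11 5, HRS against HS on day 11 16, HS change 12. Largest variance: HRS against HS on day 11 0. Adjusted p under 0.01: HS day 1 5, HRS day 1 8, HS day 11 0, HRS day 11 0, HRS against HS on day 11 0, HS change 1. Adjusted p under 0.1: HRS day 1 24, HS day 11 11, HRS day 11 14, HRS against HS on day 11 16, HS change 9, HRS change 5. Minimum log2 difference of 1: HS day 1 7, HRS day 1 3, HRS against HS on day 11 5. With 1 transcript per locus: HS day 1 7, HRS day 1 9, HS day 11 1, HRS day 11 4, HRS against HS on day 11 4, HS change 0. The pathway list held 51 calls over the comparisons with control, and 33 without the trend, 21 with an ordinary t, 19 at 0.01, 28 with the minimum difference and 24 with 1 transcript per locus. The cause of these moves was not tested beyond what each setting does by construction. The call of FLS2 in HRS against HS on day 11 had no value under the abundance filter. No plant could be left out in turn, since the table pools 6 plants per value. No paired analysis applied, since the 24 plants were different individuals, each under 1 treatment and sampled on 1 day.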
